A study of Homo sapiens with 16 samples.

Results

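Promoter regions with an intermittent H3K27ac peak are described here, that is, places near a transcription start site (TSS) where a peak was called in some of the 14 K562 ChIP libraries and not in others. Peaks called at a q-value of at most 1% (-log10 q of 2 or more) were merged over the 14 lists wherever they overlapped or touched, which gave 170159 regions, and members were selected on the number of lists with a peak, from 2 to 13, and on lying at least in part within 1 kb of the TSS of a protein-coding gene. The rule left 4040 members out of 73019 intermittent regions, and 68979 intermittent regions lay away from promoters. A further 9683 promoter regions had a peak in all 14 lists and 1609 had a peak in 1 list. In 2475 members, called lone members below, no TSS within reach had a region of all 14 lists, and the other 1565, called companions, shared a TSS with such a region. Presence or absence in the lists, and with it fold enrichment and q-value, chose the members, so the values of single members and of groups of members are given as descriptions without tests. Tests were run only on how the number of members with a peak, and 2 shares derived from it, varied over the libraries.

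H3K27ac is the acetylation of lysine 27 on histone H3, placed by the acetyltransferases p300 and CBP on nucleosomes at active promoters and enhancers. At an active promoter the TSS itself is depleted of nucleosomes, and the mark sits on the nucleosomes on either side of this gap. Promoters of broadly used genes are mostly rich in CpG dinucleotides, whereas many promoters of tissue-restricted genes are poor in CpG.

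K562 is an established human leukemia line with erythroid and megakaryocytic features. Libraries are named here by arm and by µg of DNA_chrom, the DNA content of the chromatin put into the ChIP reaction. The fixed libraries F-0.31, F-0.62, F-1.25, F-2.5, F-5, F-10 and F-20 all received 0.25 µg of antibody, which set the titer, the antibody relative to DNA_chrom, at 32, 16, 8, 4, 2, 1 and 0.5 in this order (F-0.31 has the label K562-H3K27ac-0.31-T32). The normalized libraries N-0.31 to N-20, of the same amounts, received antibody scaled to titer 1. Each condition is 1 library, except that F-10 and N-10 have equal DNA_chrom and titer, so differences between single libraries have no replicate check. The p-values come from reordering these libraries or flipping the signs of their matched differences. They do not measure the spread within a condition. F-10 and N-10 were put into the arms by the control of their peaks: peaks of all F libraries were called against input 1 and those of all N libraries against input 2, so the arm and the input library cannot be told apart. The lists hold no reads, and the sequencing depth of the libraries was not analysed here. The lists held 64083 to 82143 peaks at this threshold. The erythroid markers GATA1, TAL1, KLF1, NFE2, LMO2, HBG1, HBG2, EPOR and TFRC had a promoter region in all 14 lists. Among markers of other cell types, 7 had no region, CD3D and CD14 had intermittent regions, and EPCAM, an epithelial adhesion molecule, had a region in all 14 lists. Of the promoters the study used as qPCR controls, ACTB, GAPDH, PABPC1 and SMARCA4 had regions of all 14 lists and MYT1, a neural gene, had none.

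The promoter windows of the genes at some members are shown, for members of 3 different patterns of presence in the lists. A window is placed by the TSS and is not the sequence of the member region. The base composition of the 3 patterns was not compared. Each window runs from 250 bases before to 50 bases after a TSS of the gene in RefSeq (GRCh38.p14), is printed 5′ to 3′ along the gene, and has every CpG dinucleotide in capitals. The first set has strong lone peaks in 13 lists. These are TMX4, a thioredoxin-related protein of the endoplasmic reticulum (chr20:8019712-8020011 on the minus strand), MATCAP1, a carboxypeptidase that removes the last tyrosine of alpha-tubulin (chr16:67183914-67184213 on the minus strand), and C10orf88 (chr10:122954178-122954477 on the minus strand). Their windows held 25, 41 and 26 CpGs.
TMX4: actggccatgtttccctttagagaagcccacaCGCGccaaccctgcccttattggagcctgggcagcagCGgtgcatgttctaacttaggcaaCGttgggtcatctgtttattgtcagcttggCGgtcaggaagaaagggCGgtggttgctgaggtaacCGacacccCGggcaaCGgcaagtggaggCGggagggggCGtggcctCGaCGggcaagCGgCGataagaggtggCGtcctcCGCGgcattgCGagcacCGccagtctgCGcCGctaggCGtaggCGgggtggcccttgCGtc
MATCAP1: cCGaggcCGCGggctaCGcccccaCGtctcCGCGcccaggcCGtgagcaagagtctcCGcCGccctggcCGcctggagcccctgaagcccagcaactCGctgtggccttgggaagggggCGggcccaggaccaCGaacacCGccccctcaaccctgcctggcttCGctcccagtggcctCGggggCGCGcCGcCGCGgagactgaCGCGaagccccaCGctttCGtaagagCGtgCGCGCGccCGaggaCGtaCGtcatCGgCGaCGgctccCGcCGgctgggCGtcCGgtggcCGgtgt
C10orf88: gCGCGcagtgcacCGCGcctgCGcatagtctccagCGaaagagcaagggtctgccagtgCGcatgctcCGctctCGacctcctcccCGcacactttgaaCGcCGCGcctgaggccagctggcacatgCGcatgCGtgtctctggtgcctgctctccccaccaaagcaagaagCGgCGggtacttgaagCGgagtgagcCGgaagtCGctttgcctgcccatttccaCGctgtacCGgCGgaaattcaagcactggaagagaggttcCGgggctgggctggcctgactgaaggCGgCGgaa

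The second set had an upstream peak in all 9 lists of titer 1 or below and in none of the 5 lists of titer over 1. These are RTL8A, a gene derived from a retrotransposon (chrX:135052086-135052385 on the minus strand), the zinc finger gene ZNF431 (chr19:21141790-21142089 on the plus strand), and RTRAF, an RNA-binding factor (chr14:51989296-51989595 on the plus strand). Their windows held 31, 14 and 30 CpGs.
RTL8A: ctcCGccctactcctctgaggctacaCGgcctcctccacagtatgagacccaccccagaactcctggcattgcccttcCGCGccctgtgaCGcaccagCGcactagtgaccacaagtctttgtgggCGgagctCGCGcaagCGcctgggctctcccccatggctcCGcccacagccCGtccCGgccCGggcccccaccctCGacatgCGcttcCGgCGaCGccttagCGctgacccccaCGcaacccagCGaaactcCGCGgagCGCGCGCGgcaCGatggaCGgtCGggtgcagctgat
ZNF431: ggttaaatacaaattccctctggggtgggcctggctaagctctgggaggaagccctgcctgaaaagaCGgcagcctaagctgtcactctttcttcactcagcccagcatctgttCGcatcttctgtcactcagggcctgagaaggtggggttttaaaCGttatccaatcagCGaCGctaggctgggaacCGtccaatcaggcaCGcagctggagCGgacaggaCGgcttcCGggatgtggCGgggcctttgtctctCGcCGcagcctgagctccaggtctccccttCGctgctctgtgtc
RTRAF: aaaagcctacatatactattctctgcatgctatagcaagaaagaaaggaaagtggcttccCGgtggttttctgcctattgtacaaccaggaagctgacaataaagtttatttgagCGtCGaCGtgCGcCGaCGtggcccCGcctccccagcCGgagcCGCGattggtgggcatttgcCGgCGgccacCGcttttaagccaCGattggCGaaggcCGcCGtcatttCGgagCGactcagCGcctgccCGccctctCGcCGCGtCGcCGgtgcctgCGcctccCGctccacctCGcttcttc

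The third set had a peak in all 5 lists of titer over 1 and in none of the normalized lists, and CD3D had a peak in F-10 and F-20 as well. These are CIMAP1A, a component of the sperm flagellum (chr11:196511-196810 on the plus strand), PRF1, the perforin of cytotoxic lymphocytes (chr10:70602692-70602991 on the minus strand), and CD3D, a chain of the T cell receptor complex (chr11:118342656-118342955 on the minus strand). Their windows held 0, 9 and 5 CpGs, and the CIMAP1A window had no capital at all. In this set no window overlaps its member region, so the counts are not those of the sequence under the peaks. The median was 27 CpGs in the windows of genes with a region of all 14 lists and 8 in those of genes without any region.
CIMAP1A: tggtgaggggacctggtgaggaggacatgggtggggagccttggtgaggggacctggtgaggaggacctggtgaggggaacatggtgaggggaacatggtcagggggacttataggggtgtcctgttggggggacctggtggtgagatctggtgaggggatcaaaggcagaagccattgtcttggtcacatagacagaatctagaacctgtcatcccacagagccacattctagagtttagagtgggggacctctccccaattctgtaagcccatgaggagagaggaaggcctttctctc
PRF1: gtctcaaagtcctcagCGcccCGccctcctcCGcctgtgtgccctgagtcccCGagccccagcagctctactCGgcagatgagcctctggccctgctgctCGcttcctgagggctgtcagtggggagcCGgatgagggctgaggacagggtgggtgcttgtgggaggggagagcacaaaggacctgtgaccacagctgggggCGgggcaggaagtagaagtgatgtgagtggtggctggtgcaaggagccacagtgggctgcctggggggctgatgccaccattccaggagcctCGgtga
CD3D: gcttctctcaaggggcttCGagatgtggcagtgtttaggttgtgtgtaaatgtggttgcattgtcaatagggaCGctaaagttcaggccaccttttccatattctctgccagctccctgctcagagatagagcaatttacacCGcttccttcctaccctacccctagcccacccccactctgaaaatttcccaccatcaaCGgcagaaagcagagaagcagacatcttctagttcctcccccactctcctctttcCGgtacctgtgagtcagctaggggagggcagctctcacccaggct

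The members spread over the whole range from 2 to 13 lists and were most frequent at both ends. A peak was present in 2 lists at 624 members (15.4%, against 32.4% of all 73019 intermittent regions) and in 13 lists at 817 members (20.2%, against 4.87%). Between 198 members (in 9 lists) and 401 members (in 12 lists) fell on each number of lists from 3 to 12. Lone members were as frequent in 2 lists as in 13, with 437 at each, whereas 187 companions were in 2 lists and 380 in 13. At intermittent regions away from promoters the share fell from 33.4% in 2 lists to 3.97% in 13. These are distributions of the quantity that chose the members and carry no test.

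**Figure D1:**
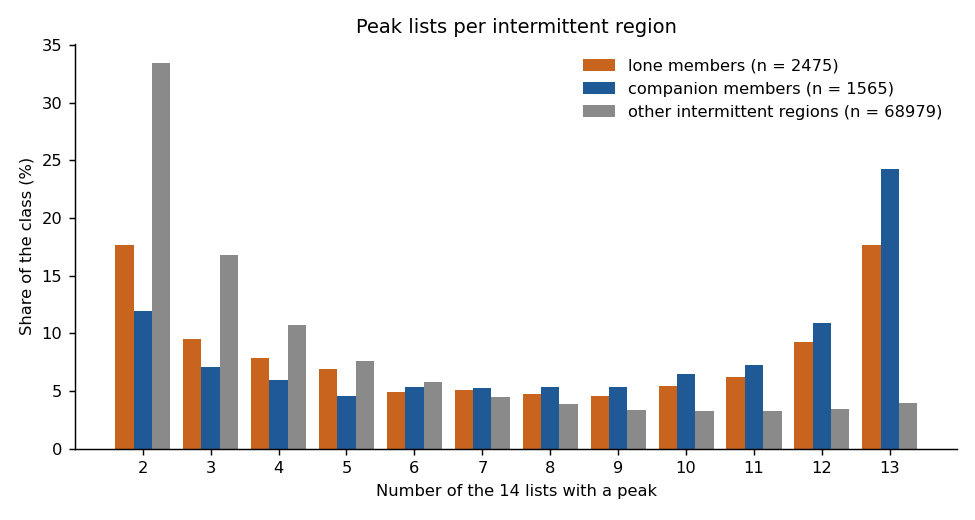
Share (%) of lone members (2475), companions (1565) and other intermittent regions (68979) with a peak in 2, 3 and so on up to 13 of the 14 lists. Members of both kinds rise again towards 13 lists, where 17.7% of lone members and 24.3% of companions lie, and the other regions do not rise above 3.97% from 9 lists on.

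Members that were in more lists were stronger and wider. The median of the mean fold enrichment (the authors' value, ChIP over its input at the peak) was 4.05 for members in 2 lists, 4.56 for those in 7 and 6.41 for those in 13, and the median width was 364.5, 682 and 1228 bp. Just inside and just outside the threshold on the number of lists, promoter regions of 13 and of 14 lists had median fold enrichments of 6.41 and 10.6 and widths of 1228 and 2746 bp, and those of 2 lists and of 1 list had 4.05 and 3.85. At the distance threshold, 150 members whose nearest edge lay in the last 100 bp inside had a median of 3.5 lists, and 158 regions in the next 100 bp outside had a median of 3 lists and nearly equal fold enrichments (4.25 and 4.22). The distance threshold therefore separated like regions, whereas the threshold at 13 lists lay within a steep change of strength.

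For the 817 members in 13 lists, the list without a peak was mostly F-0.31, F-0.62 or F-1.25, of titer 32, 16 and 8. In 388 of them (47.5%) it was F-0.31, in 159 (19.5%) it was F-0.62, in 92 (11.3%) it was F-1.25 and in 76 (9.30%) it was N-0.31. Each of the remaining 10 libraries was the missing one in 4 to 26 members. Among them were N-0.62 with 12 members (1.47%) and N-1.25 with 10 (1.22%), of the same DNA_chrom as F-0.62 and F-1.25. Among the 2738 other intermittent regions of 13 lists the order of the leading libraries was the same, with 42.9% for F-0.31 and 19.5% for F-0.62. A weaker peak, with a q-value between 1% and 5%, was deposited for 209 of the 817 missing lists (25.6%) and for 7.38% of all 25054 missing pairs of member and list, against 5.11% of those of the other intermittent regions. With such peaks counted, 229 members (5.67%) had a peak in all 14 lists, against 1.18% of the other intermittent regions. Of these 229 members, 209 were members in 13 lists. In 13 lists lay 20.2% of members and 3.97% of the other intermittent regions. The shares with weaker peaks were not compared at equal numbers of lists.

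Across the fixed-antibody arm the number of members with a peak rose from 1221 in F-0.31 to 2621 in F-10. A peak was present at 30.2% of members in F-0.31 (against 19.5% of all intermittent regions), at 41.3% in F-0.62 (against 24.6%), at 43.2% in F-1.25 (against 25.1%) and at 52.3% in F-2.5 (against 32.4%). The share was 59.3% in F-5 (against 39.4%), at 64.9% in F-10 (against 40.3%) and at 61.6% in F-20 (against 36.6%). The number fell as titer rose, and against log2 titer Pearson's r was -0.960 (two-sided exact permutation p = 0.00159, Benjamini-Hochberg adjusted p = 0.00655 over 9 tests, n = 7) and Spearman's rho was -0.964 (exact p = 0.00278). Without F-0.31 and F-20, which lay farthest from the median, r was -0.987 (exact p = 0.0167). In this arm DNA_chrom rises as titer falls, so the contributions of the 2 cannot be told apart. The members were chosen on these same lists, so the p-values of this and the following trends are not independent of the choice. With members chosen anew from the other 13 lists and the peak read in the list left out of the choice, a peak was present at 32.4% of 3594 members in F-0.31 and at 64.4% of 3976 in F-10, and r of the number against log2 titer was -0.969 (exact permutation p = 0.000794, unadjusted, n = 7). This choice of members was added after the data had been seen. Each list then had its own set of members, chosen on the other lists of the same titration. The p-values of this choice, here and below, are therefore not independent of the lists either.

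At constant titer 1 the number of members with a peak also rose with DNA_chrom, although N-2.5 lay below N-1.25. In this arm the amount of antibody rises with DNA_chrom, so their contributions cannot be told apart. A peak was present at 46.8% of members in N-0.31 (against 28.6% of all intermittent regions), at 57.8% in N-0.62 (against 39.2%), at 62.1% in N-1.25 (against 43.9%) and at 58.6% in N-2.5 (against 39.6%). The share was 65.8% in N-5 (against 46.3%), at 66.4% in N-10 (against 43.8%) and at 69.6% in N-20 (against 43.4%), which are 1891 members at the lowest and 2811 at the highest. The number rose with log2 DNA_chrom (Pearson's r = 0.909, two-sided exact permutation p = 0.00218, adjusted p = 0.00655, n = 7; Spearman's rho = 0.964, exact permutation p = 0.00278). Without N-0.31 and N-20, r was 0.833 (exact permutation p = 0.075), so that the rise did not pass the threshold over the middle 5 amounts, and on a linear scale of DNA_chrom r was 0.730 (exact permutation p = 0.0702). With members chosen from the other 13 lists r was 0.916 against log2 DNA_chrom (exact permutation p = 0.00218, unadjusted, n = 7).

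**Figure D2:**
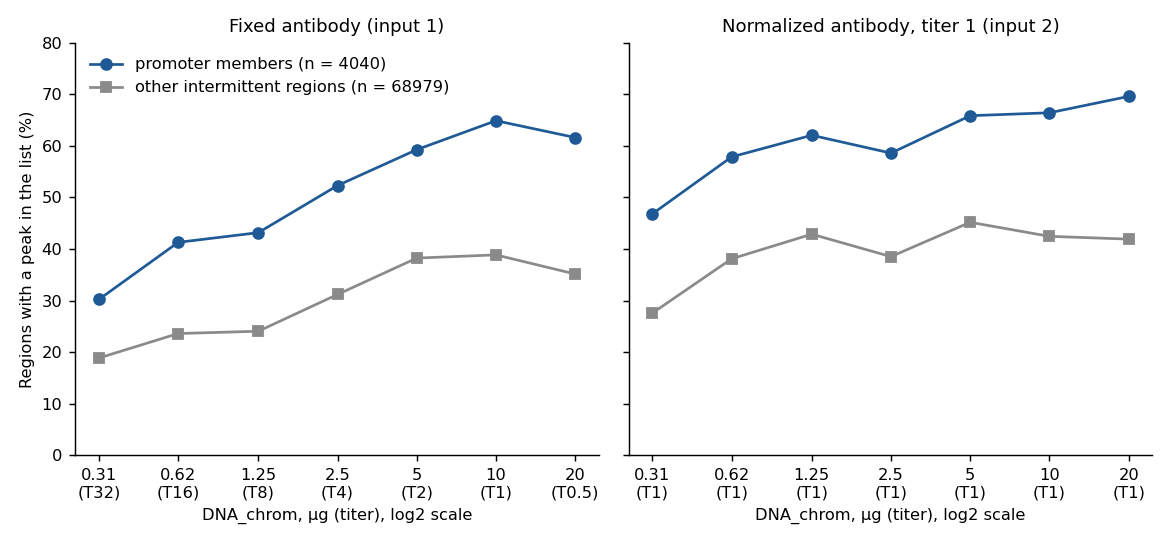
Share (%) of the 4040 members and of the 68979 other intermittent regions with a peak in each list, by DNA_chrom (µg, log2 axis, titer in parentheses), with the fixed-antibody arm on the left and the normalized arm on the right. Each point is 1 library, and members rise from 30.2% to 64.9% before F-20 in the fixed arm and from 46.8% to 69.6% in the normalized arm.

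At each of the 6 amounts at which the arms differed in titer, more members had a peak in the normalized list. The mean was 1938 members in the fixed lists and 2429 in the normalized lists, a difference of 491 ± 234 (SD, n = 6), and the 6 differences ran from 254 to 763 (exact sign-flip test, two-sided p = 0.03125, the smallest p that 6 pairs allow, adjusted p = 0.0703). The difference thus did not pass the threshold after adjustment over the 9 tests. It was 514 with members chosen from the other 13 lists, with the same unadjusted p. At 10 µg, where both arms had titer 1, the normalized list had 62 members more. Of all members, 2902 (71.8%) had a peak in a larger share of the 9 lists of titer 1 or below than of the 5 lists of titer over 1, and 66.4% of all intermittent regions had this direction as well.

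Members stayed a nearly constant part of the intermittent regions found in a list. They made up 7.82% (N-1.25) to 9.51% (F-1.25) of the intermittent regions with a peak, with a median of 8.72% over the 14 lists. Against log2 titer this share gave a Pearson's r of -0.0427 (exact permutation p = 0.924, adjusted p = 0.984, n = 7; Spearman's rho -0.0714), and against log2 DNA_chrom an r of -0.00888 (exact permutation p = 0.984, adjusted p = 0.984, n = 7; rho 0.0714). Without the 2 libraries farthest from the median these were 0.684 (exact permutation p = 0.2) and 0.328 (exact permutation p = 0.567). The normalized lists had a mean share of 8.32% and the fixed lists of 8.99%, a difference of -0.672 ± 0.728 percentage points (SD, n = 6; exact sign-flip test, p = 0.125, adjusted p = 0.161). Neither the trends nor the difference could be told from the spread between libraries at this threshold. When the minimum -log10 q was set to 5 and the peaks were merged anew, the share rose with titer (r = 0.903, exact permutation p = 0.0111), fell with DNA_chrom (r = -0.826, exact permutation p = 0.0192) and was 5.11 percentage points lower in the normalized lists (exact sign-flip test, p = 0.03125), none of these p-values being adjusted.

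The 2 kinds of member changed unequally across the fixed-antibody arm. Companions had a peak at 26.4% in F-0.31 and at 71.4% in F-10, and lone members at 32.6% and 60.8%. The lone share of the members with a peak was 66.2% in F-0.31, 62.9% in F-0.62, 59.3% in F-1.25, 59.7% in F-2.5, 58.1% in F-5, 57.4% in F-10 and 56.6% in F-20. It rose with log2 titer (Pearson's r = 0.930, two-sided exact permutation p = 0.000794, adjusted p = 0.00655, n = 7; Spearman's rho = 0.964, exact permutation p = 0.00278), and r was 0.909 without F-0.31 and F-20 (exact permutation p = 0.0333). With members chosen from the other 13 lists r was 0.942 (exact permutation p = 0.00119, unadjusted, n = 7). In the normalized arm the lone share was lowest in N-0.31 (53.9%) and highest in N-5 (58.5%), with an r of 0.659 against log2 DNA_chrom (exact permutation p = 0.0911, adjusted p = 0.161, n = 7), where rho was 0.536 (exact permutation p = 0.236) and r was 0.673 without N-0.31 and N-20 (exact permutation p = 0.208). Over the 6 matched amounts the mean was 56.8% in the normalized lists and 60.5% in the fixed lists, a difference of -3.69 ± 4.90 percentage points (SD, n = 6; exact sign-flip test, p = 0.125, adjusted p = 0.161). At 0.31 µg of DNA_chrom the normalized list lay 12.3 points below the fixed list, without this pair the mean difference was -1.97 points, and at 10 µg the difference was -0.0215 points.

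The libraries F-10 and N-10, the only 2 of equal DNA_chrom and titer, show how far the calls of like libraries differed at intermittent regions. Their peaks were called against different inputs, so the input library is a part of this difference that cannot be told apart. Both had a peak at 2052 members (50.8%, against 23.1% of all intermittent regions), and exactly 1 of them had a peak at 1200 members (29.7%, against 37.9%). The shared members were 78.3% of those in F-10 and 76.5% of those in N-10, whereas at intermittent regions away from promoters the shared part was 55.2% and 50.6%. Members lay in 13 lists more often, and in 2 lists less often, than these regions. Shared parts were not compared at equal numbers of lists. Companions were shared more often, at 81.6% and 79.7%, than lone members, at 75.8% and 74.1%. Of the members in F-10, 82.0% were also in N-20, 79.4% in F-20, 75.7% in F-5, 67.5% in F-2.5, 55.9% in F-1.25, 51.3% in F-0.62 and 36.9% in F-0.31. For intermittent regions away from promoters these shares were 54.9%, 56.8%, 57.1%, 47.8%, 36.2%, 33.6% and 25.6% in the same order. At equal DNA_chrom in the normalized arm the share of members did not fall as far, with 71.1% in N-0.62 and 59.1% in N-0.31. Away from promoters it was 49.7% and 40.1%, so both patterns were shared with the other intermittent regions.

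Few members followed the design without exception. A peak in all 9 lists of titer 1 or below and in none of titer over 1 was found at 8 members (0.198%, against 0.203% of all intermittent regions), so that this pattern was no more frequent at promoters than elsewhere. A peak in all 5 lists of titer over 1 and in no list against input 2 was found at 5 members (0.124%, against 0.0753%). A peak in all 7 lists against input 1 and in none against input 2 was found at 3 members (0.0743%, against 0.0301%), and the reverse at 4 members (0.099%, against 0.297%). The counts are small, and a pattern set by the arm cannot be told apart from one set by the input library.

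Of the 8 strongest lone members over a TSS, 7 lacked a peak in 1 list and KDM4A lacked one in 3. TMX4 (region chr20:8018517-8019782) had a fold enrichment of 6.82 in F-0.62, 6.25 in F-1.25, 10.2 in F-2.5, 11.2 in F-5, 11.6 in F-10 and 10.2 in F-20, and the 7 N libraries ranged from 9.79 to 18.9. Its peak was absent in F-0.31, where a weaker peak was deposited. MATCAP1 (chr16:67183759-67184393) had a fold enrichment of 7.0 in F-0.31 and of 17.0 in F-10 but no peak in F-1.25, weaker ones included. C10orf88 (chr10:122952943-122955201) had 7.29 in F-0.31 and 6.03 in F-1.25 but no peak in F-0.62, the library between them in the titration. ZNF133, a KRAB zinc finger repressor, lacked a peak only in N-0.31 and had its lowest fold enrichment, 4.78, in F-0.31 and its highest, 17.1, in F-20. KRT10, a keratin of the epidermis, POT1, a protein of the telomere-protecting shelterin complex, and GBP2, an interferon-induced GTPase, all lacked a peak only in F-0.31, and their median fold enrichments over the other 13 lists were 9.18, 9.53 and 10.3. The region at KDM4A, a histone demethylase, was 221 bp wide and in 11 lists, but with the other regions within 1 kb its TSS had a peak in all 14 lists, so there the gap lay in the position of the peaks. The mean percentile of fold enrichment over lists, by which the 8 regions were chosen, was 86.4 to 89.2, and the lowest percentile in a single list was 56.0 at ZNF133 and 68.4 at GBP2.

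The 4 strongest companions also lay in 13 lists and lacked a peak in F-0.31 alone. MYL4, a myosin light chain of atrial and embryonic muscle, had a fold enrichment of 7.39 to 13 in the 6 other fixed lists and of 10.6 to 15 in the normalized lists. WBP11, a splicing factor, had 4.83 in F-0.62 and 13.2 in F-10 and lay between 11.9 and 15.7 in the normalized lists. EBP and SQLE, both enzymes of cholesterol synthesis, had median fold enrichments of 9.76 and 12.0. SQLE had 5.12 to 10.6 in the fixed lists and 12.0 to 20.6 in the normalized lists, whereas at MYL4, WBP11 and EBP the 2 ranges overlapped. How many members or other intermittent regions had separate ranges was not counted. At all 4 genes a second region kept the promoter covered in all 14 lists.

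Of the 8 members present in all lists of titer 1 or below and in no other, the 6 named by the rule lay upstream of their TSS. Over all members 45.7% lay upstream, and 72.4% of companions, to which ZNF431, RTRAF, NDUFA3 and RPRD1A belong. The RTL8A region (chrX:135052292-135052848, 157 bp from the TSS) reached 9.67 in F-10 and 11.0 in F-20, and the normalized values ran from 4.85 to 8.60. The ZNF431 region (chr19:21140068-21141849, 191 bp from the TSS) had 5.20 and 7.20 in the same fixed lists, against 6.26 to 10.3 at the N libraries. The RTRAF region (chr14:51988340-51989353, 193 bp from the TSS) had 5.22 and 5.35, against 4.83 to 8.60 at the N libraries. NDUFA3, a subunit of respiratory complex I, RPRD1A, which binds the tail of RNA polymerase II, and MRPL45, a mitochondrial ribosomal protein, had medians of 5.79, 5.42 and 5.13 over the 9 lists. At RPRD1A and MRPL45 a weaker peak was deposited in F-2.5. At each of the 6, other regions within 1 kb of the TSS had a peak in at least 1 list of titer over 1. Over all regions within 1 kb of the TSS a peak was present in 14 lists at ZNF431, RTRAF, NDUFA3 and RPRD1A, in 13 at RTL8A and in 10 at MRPL45, so that at MRPL45 1 list of titer over 1 had a peak.

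Of the 5 members with a peak in all lists of titer over 1 and in none against input 2, PRF1 and CIMAP1A had no further peak, whereas GTF2E2, CTSW and CD3D also had peaks in F-10 and F-20. The PRF1 region (chr10:70601858-70602632, 109 bp downstream of the TSS) had a fold enrichment of 4.41 in F-0.31, 4.19 in F-0.62, 4.74 in F-1.25, 4.22 in F-2.5 and 3.89 in F-5, and no other list had a peak there. The CIMAP1A region (chr11:196991-197548, 230 bp downstream) had 4.06 to 4.82 in the same 5 lists. The CD3D region (chr11:118341923-118342586, 119 bp downstream) had 3.61 to 4.69 and the region at CTSW, a cathepsin of cytotoxic lymphocytes (chr11:65878180-65879351, 486 bp upstream), had 3.46 to 5.52 in all 7 lists against input 1. GTF2E2, a subunit of the general transcription factor TFIIE, had the fifth such region, with 3.77 to 5.84, as a companion of a region in all 14 lists. PRF1, CTSW and CD3D are genes of T and natural killer cells. Their mean percentiles of fold enrichment within the lists were 38.4, 35.3 and 31.7, against 41.7 at CIMAP1A and 50.1 at GTF2E2. Weaker peaks were deposited at CD3D in N-10, at GTF2E2 in N-20 and at CIMAP1A in N-1.25. The reverse pattern, all 7 lists against input 2 and none against input 1, was found at CES3, a carboxylesterase (6.03 to 7.42), C9orf72 (4.29 to 6.89), TFAP2B, a transcription factor of neural crest and kidney (3.50 to 6.15), and ARRDC1, an arrestin-domain protein (3.39 to 6.64).

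**Figure D3:**
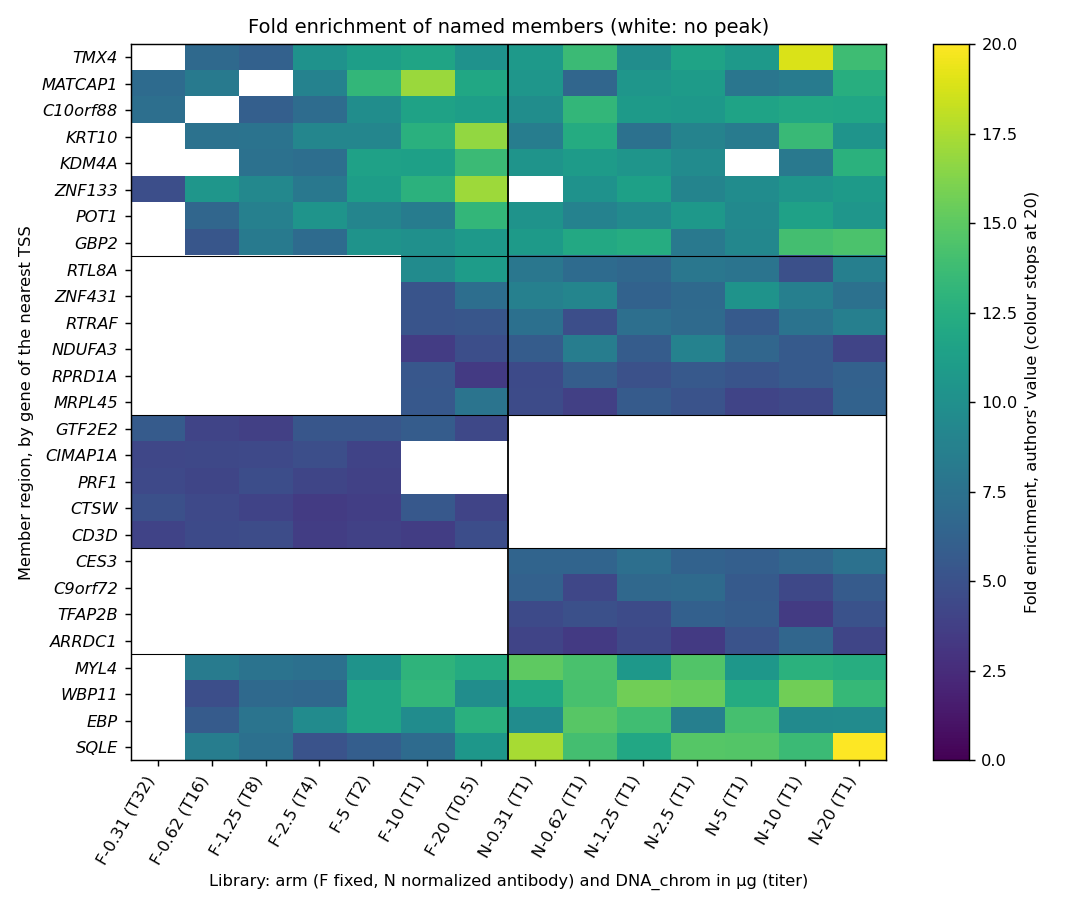
Fold enrichment (the authors' value, colour scale ending at 20) of the named members in each of the 14 libraries, white where the list has no peak. From top to bottom the blocks are the 8 strongest lone members over a TSS, 6 members of all lists of titer 1 or below and none of titer over 1, 5 members of all lists of titer over 1 and no normalized list (3 of them also in F-10 and F-20), 4 members of the normalized lists and the 4 strongest companions; the gaps of the first and last block fall mostly in F-0.31.

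Lone members and companions lay differently around the TSS. Of the lone members, 792 (32%) contained the TSS, 714 (28.8%) lay upstream and 969 (39.2%) downstream. Of the companions, 129 (8.24%) contained it, 1133 (72.4%) lay upstream and 303 (19.4%) downstream. Companions were by definition near a region of all 14 lists, and their median gap to the nearest such region was 212 bp, with quartiles of 173 and 277 bp, whereas lone members had a median gap of 23088 bp. The fullest bin was 500 to 750 bp upstream for companions (26.7%) and 250 to 500 bp downstream for lone members (21.6%). Members were 694 bp wide in the median (quartiles 459 and 1075 bp), with 703 bp for lone members and 683 bp for companions. Promoter regions of all 14 lists were 2746 bp wide and contained the TSS in 63.4% of cases. These positions follow in part from the definition of the 2 kinds and are given without a test.

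**Figure D4:**
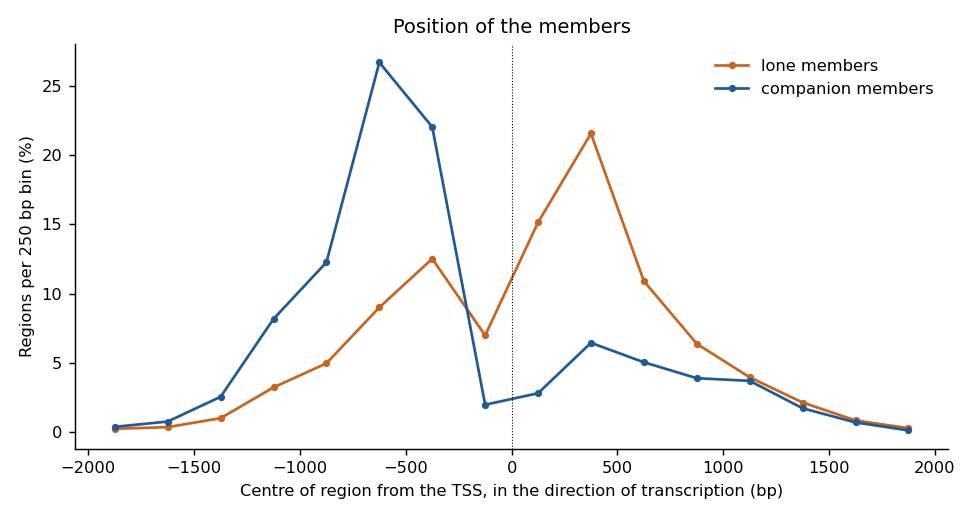
Centre of each member relative to the nearest TSS (bp, positive in the direction of transcription), as the share (%) of lone members and of companions in bins of 250 bp. Companions peak upstream, with 26.7% between 500 and 750 bp, and lone members peak downstream, with 21.6% between 250 and 500 bp.

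Seen by gene, 1887 of 19630 protein-coding genes (9.61%) had intermittent regions and no region of all 14 lists at the TSS, 9539 (48.6%) had a region of all 14 lists, 542 (2.76%) had a region of 1 list alone and 7662 (39.0%) had none. Of the intermittent genes, 1234 had 1 member and 653 (34.6%) had more. Taken over its members an intermittent gene had a peak in a median of 10 lists, and 82 genes (4.35%) had a peak in all 14, at different positions in different lists. The fewest of these genes had a peak in F-0.31 (821, 43.5%) and the most in N-20 (1393, 73.8%). Of the genes with a region of all 14 lists, 1645 (17.2%) had a member beside it. The X chromosome had the highest share of intermittent genes, 126 of 843 (14.9%), together with a low share of genes with a region of all 14 lists (28.6%), followed by chromosome 22 (12.8%) and chromosome 12 (12.8%). Chromosome 21 had the lowest, 11 of 236 (4.66%).

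The intermittent share was above that of all genes in the lists of myeloid and of lymphoid genes and below it in the list of megakaryocyte genes. In the list of 20 myeloid genes 8 were intermittent (40.0%, against 9.61% of all genes) and 4 had a region of all 14 lists. LYZ, the lysozyme of myeloid cells, and CSF1R, the receptor of macrophage colony-stimulating factor, had a peak in 13 lists, CEBPE and CEBPA, transcription factors of granulocytes, in 12 and 8, and AZU1 and ELANE, proteins of neutrophil granules, in 9 and 2. ITGAM, an integrin chain of myeloid cells, had a peak in every N library and in no F library, and CD14, the endotoxin co-receptor of monocytes, in 3 lists. In the list of 40 lymphoid genes 7 were intermittent (17.5%), among them CD5 with a peak in 13 lists, LAT in 10, CD3D in 9, CD3G in 6, PRF1 in 5 and ZAP70 in 3. Megakaryocyte and platelet genes, of a lineage K562 can enter, had 1 intermittent gene of 20 (ITGB3, 5 lists). These lists are small and were compiled with earlier results of these data known, so the shares are descriptions.

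Among 49 erythroid and heme genes 35 had a region of all 14 lists and 8 were intermittent (16.3%). SLC4A1, the anion exchanger of the red cell membrane, RHD, a blood group antigen, GYPE, a glycophorin, and CA1, a carbonic anhydrase, had a peak in 13 lists, GYPB in 12, HBE1, the embryonic beta-like globin, in 11 and HBB, the adult beta globin, in 8. ALAD, an enzyme of heme synthesis, was covered in all 14 lists by 3 separate members. Members of families with near-identical copies, such as RHD, GYPB and GYPE, may share reads, and their peaks are uncertain. OR51B5 and OR52A1, olfactory receptor genes whose family flanks the beta-globin cluster on chromosome 11, had members over the TSS in 13 and 11 lists, and olfactory receptors as a whole had 6 intermittent genes of 388 (1.55%).

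In the lists of ribosomal protein, complex I and proteasome genes, which all cells use, the intermittent share was below the 9.61% of all genes. The intermittent genes included 2 of 84 cytosolic ribosomal protein genes (2.38%), which were the paralogs RPL39L (13 lists) and RPL3L (5 lists), known from testis and muscle. They also included 2 of 77 mitochondrial ribosomal protein genes (MRPS31 and MRPL45), 1 of 36 complex I genes (NDUFA12, 13 lists) and 2 of 39 proteasome genes (PSMB6 and the immunoproteasome subunit PSMB9, in 14 and 8 lists). Replication-dependent histone genes had 6 of 69 (8.70%) and may share reads between copies. Shares below that of all genes, some by few genes, were also found in families whose genes mostly had no region at all, such as clustered protocadherins (0 of 53), neuronal genes (2 of 32, 6.25%), interleukins and chemokines (5 of 80, 6.25%), keratins (4 of 55, 7.27%) and HOX genes (2 of 39, 5.13%). Shares from 8.33% to 13.6% were found for zinc finger genes (57 of 509, 11.2%), solute carriers (39 of 346, 11.3%), potassium channels (12 of 95, 12.6%), collagens (6 of 44, 13.6%), immediate early genes (3 of 27, 11.1%), developmental transcription factors (8 of 79, 10.1%) and liver genes (2 of 24, 8.33%). Interferon-stimulated genes had 5 of 32 (15.6%), with GBP2 in 13 lists, IFIT2 in 11, IFI6 in 10, USP18 in 3 and IFIT1 in 2. Among the developmental factors, DLX2 had a member over the TSS in 13 lists and FOXA1 and FOXA2, pioneer factors of endoderm, in 12 each.

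**Figure D5:**
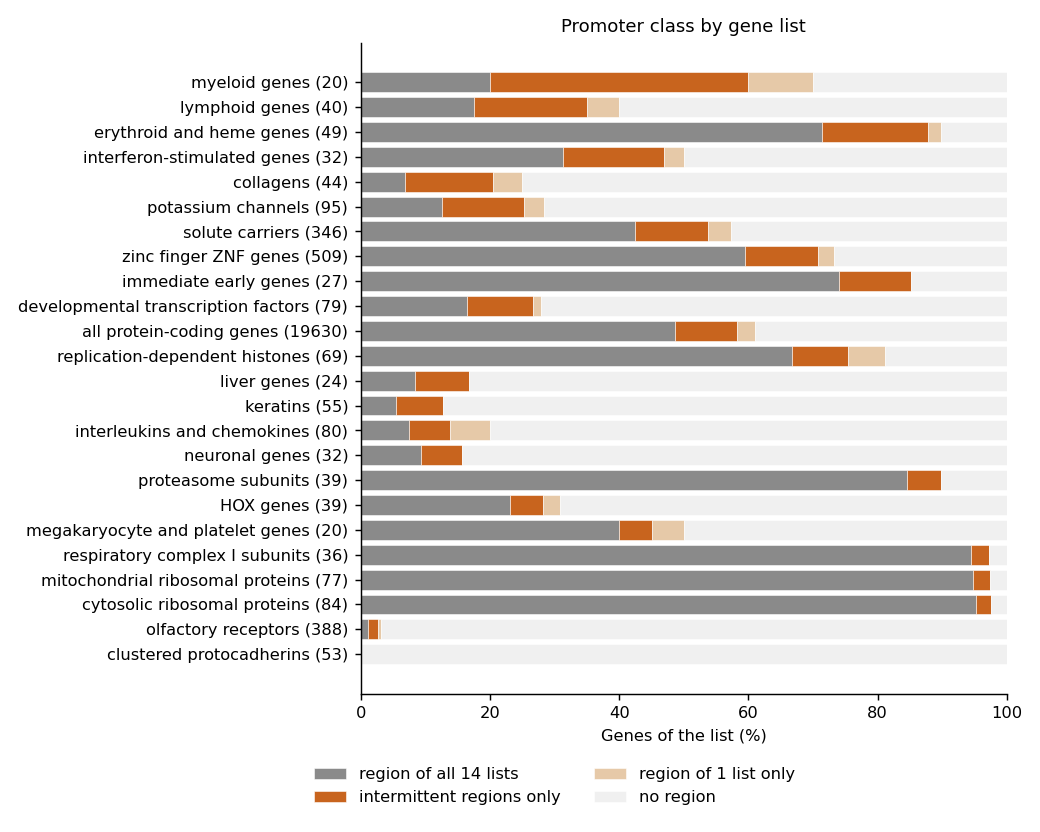
Share (%) of the genes of each list (number of genes in parentheses) whose TSS had a region of all 14 lists, intermittent regions only, a region of 1 list only or no region within 1 kb, in the order of the intermittent share. Myeloid genes stand at the top with 40.0% and clustered protocadherins at the bottom with 0%, against 9.61% of all protein-coding genes.

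The base composition of the promoter windows, which the rule did not use, stood between that of the other classes. RefSeq windows were at hand for 13792 genes. The median ratio of observed to expected CpG was 0.865 for 7179 genes with a region of all 14 lists, 0.755 for 1265 intermittent genes, 0.483 for 322 genes with a region of 1 list and 0.390 for 5026 genes without a region, and 0.767 over all windows. Within the intermittent genes it was 0.786 for the 769 genes with a peak in 8 to 13 lists and 0.663 for the 496 with a peak in 2 to 7. Median GC content was 64.0% in both of these groups, 65.7% in genes with a region of all 14 lists and 55.0% in genes without one, so the groups by number of lists differed in CpG and not in median GC. The printed windows span this range, from a ratio of 1.15 at RTRAF and 0.986 at MATCAP1 to 0.285 at PRF1, 0.252 at CD3D and 0 at CIMAP1A.

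Short motifs were searched for on both strands of the windows. The ETS-type motif CCGGAAG was in 23.1% of windows of genes with a region of all 14 lists, in 11.3% of those of intermittent genes, in 3.82% of those of genes without a region and in 14.6% of all windows. Within the intermittent genes it was in 14.3% of those of 8 to 13 lists and in 6.65% of those of 2 to 7 lists. The GC box GGGCGG was in 73.1%, 63.6% and 36.9% of the same 3 classes and in 58.5% of all windows. The TATA box TATAAA went the other way, with 5.36%, 7.11% and 17.4%, and 10.0% of all windows. CCAAT, on the other hand, was in 38.4%, 35.1% and 36.1% (37.1% of all windows), and the GATA-type motif AGATAA in 4.22%, 7.91% and 12.5% (7.69% of all windows). The AP-1 motif TGANTCA was in 5.14% of windows of intermittent genes (5.78% of all), the CRE motif TGACGTCA in 1.98% (2.70%) and GCATGCGC, bound by NRF1, in 4.11% (4.45%). The motifs do not contain each other, and a match is a description of the letters in the window. In the printed windows CCGGAAG was found at C10orf88, RTL8A and ZNF431, and TGANTCA at CD3D.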

How the data were processed

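Peak lists of 14 H3K27ac ChIP-seq libraries of K562 were analysed. The authors aligned reads with BWA (version 0.5.9 in the submitters' processing notes) and called peaks with MACS2 in each library against 1 of 2 inputs; the deposited fold enrichment is a ratio and the deposited p-value and q-value are -log10 values. The notes name hg38, used here, and the paper names hg19. The deposited lists reach a q-value of 5.00%, and a -log10 q of 2 was set as the minimum. Scripts used Python 3.11.15, numpy 2.4.6, pandas 2.3.3 and scipy 1.17.1.

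The TSS was the 5′ end of the RefSeq gene (GRCh38.p14), known for 19630 of the 19974 protein-coding genes of the autosomes and X (98.3%). The strand came from the RefSeq promoter table (15812 genes) or by symbol from GENCODE v44 (3818 genes); 63 of 15260 genes with both differed. Trends were tested over all 5040 orders of 7 libraries and matched differences over 64 sign patterns, both two-sided. The functions were tested on simulated data. The members and gene lists were chosen with earlier results of these data known. Named regions followed a rule: the controls; the 8 strongest lone members over a TSS in 7 to 13 lists, by mean percentile of fold enrichment; the strongest 6 with each titer pattern, 4 with each input pattern and 4 companions; and up to 4 genes with a lone member over the TSS in each gene list. Members of the gene lists named for their number of lists were added after their values were seen. Windows are printed for at most 10 of them. The sequence of the regions themselves was not used here. Some of the genes examined are not reported here.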

Additional observations from a re-analysis of the deposited data

Results flagged for a closer look

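The difference between the arms changed with DNA_chrom for 1 of 3 measures, the lone share, after adjustment, and for 2 at an unadjusted p. This test of the matched differences (normalized minus fixed) over the 7 amounts, 10 µg included, was chosen after the data had been seen, and the 3 values were adjusted together. The members, and their division into lone members and companions, came from these same lists. The p-values of this test are therefore not independent of that choice. The test was not repeated with members chosen without the list in which the peak was read. It compares the trends of the arms reported above and adds no independent data. For the number of members with a peak, the difference gave, against log2 DNA_chrom, r = -0.793 (exact permutation p = 0.0425, adjusted p = 0.0637, n = 7), which did not pass after adjustment, and rho = -0.643 (exact permutation p = 0.139). The number gained 227 members per 2-fold rise of DNA_chrom in the fixed arm and 129 in the normalized arm. Without 0.31 and 20 µg r was -0.904 (exact permutation p = 0.0667), and leaving out 1 amount at a time gave -0.880 to -0.752, with a p of at most 0.110 in the exact permutation tests.

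For the lone share of members with a peak, r was 0.881 (exact permutation p = 0.00218, adjusted p = 0.00655, n = 7) and rho 0.893 (exact permutation p = 0.0123). The lone share fell by 1.46 percentage points per 2-fold rise of DNA_chrom in the fixed arm and rose by 0.445 in the normalized arm. Without 0.31 and 20 µg r was 0.901 (exact permutation p = 0.0417), and leaving out 1 amount at a time gave 0.869 to 0.922, with a p of at most 0.0167 in the exact permutation tests. For the promoter share of intermittent regions r was -0.0336 (exact permutation p = 0.944). Between the arms the titer differs by an amount that changes with DNA_chrom, from 32 against 1 at 0.31 µg to 0.5 against 1 at 20 µg. A change of the difference with DNA_chrom therefore cannot be told apart from a change with titer. The input library also differs between the arms, and its part was not tested.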

How the results depend on the processing

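The number of members with a peak kept its direction in all 3 of its tests under every alternative, and so did the lone share; calls below are at an unadjusted p of 0.05. On a linear scale the rise of the number with DNA_chrom gave r = 0.730 and did not pass. Without any 1 pair the number was 436 to 538 higher in the normalized lists, with 5 pairs that cannot go below p = 0.0625 in the exact test. The rise of the lone share with DNA_chrom, r = 0.659 and not past the threshold as reported, passed with a -log10 q of at least 3 (0.741) or 5 (0.836) within 500 bp (0.730) or 2 kb (0.901) of a TSS and with members chosen from the other 13 lists (0.740), and was 0.314 without N-0.31 and 0.810, past the threshold, without N-20. Within 2 kb the lone share was also lower by 4.22 points in the normalized lists (a difference of -4.22).

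The 2 trends of the promoter share of intermittent regions had no direction that held, whereas its matched difference stayed negative. Against log2 titer (-0.0427 as reported) r was 0.50 and 0.903 at a -log10 q of at least 3 and 5, 0.172 within 2 kb, 0.127 with N-10 in place of F-10, 0.253 with members chosen from the other 13 lists, and -0.255 to 0.293 with 1 library left out. Against log2 DNA_chrom (-0.00888 as reported) r was 0.0931 with the full deposited lists, -0.826 at a -log10 q of at least 5, 0.244 within 2 kb, 0.599 with 3 to 12 lists, 0.0333 with all 22132 TSSs of the RefSeq promoter table (added after the data had been seen), 0.393 on a linear scale, 0.145 with F-10 in place of N-10, and -0.455 to 0.681 with 1 library left out. The normalized minus fixed difference was negative under every alternative. It was -5.11 points at a -log10 q of at least 5 and -0.439 points with 3 to 12 lists, both past the threshold. The cause of these changes was not tested.

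The peak lists hold no read counts, so depth and its part in the trends were not analysed, and 7 libraries per trend are few. Of all alternatives, 115 kept direction and call, 15 reversed the direction, 10 newly passed and 7 no longer did. The matched differences pair the libraries by DNA_chrom.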
